A study of Mus musculus with 14 samples.

Results

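The H2 antigen presentation genes are the mouse major histocompatibility (MHC) genes and the proteins that load peptides onto their products. They were taken as every gene symbol of the deposited tables that starts with H2-, which gave 44 genes, plus B2m, Tap1, Tap2, Tapbp, Psmb8, Psmb9, Psmb10, Nlrc5, Ciita and Cd74, which made 54 of the 23420 rows of each table. The series asked how p62, the autophagy receptor and signalling scaffold encoded by Sqstm1, acts in hepatic stellate cells (HSC), fibrosis and liver cancer, and its RNA-seq covered 14 libraries. Liver tissue came from wild-type (WT) and p62-deficient (p62KO) mice, 3 libraries each, and all 6 livers had been exposed to diethylnitrosamine (DEN), a liver carcinogen, and to a high-fat diet (HFD). HSC, the matrix-producing cells of the liver, came from animals of both genotypes. They had been immortalized with SV40 antigen and grown in vitro either in vehicle or in calcipotriol, a vitamin D receptor agonist, giving 4 groups of 2 libraries. All groups thus carry a shared exposure: every liver had the carcinogen and the diet, and every HSC library came from immortalized cells. The sources used here give no age, no calcipotriol dose or time, and no number of cell lines or cultures behind the HSC replicates, so the p-values in HSC measure only the spread between these libraries.

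Library totals ranged from 17506607 to 20040583 counts in liver and from 15207117 to 29079258 in HSC. Levels are given as CPM, counts scaled to the library total times its TMM scaling factor. Sqstm1 checked the genotype labels. It lay at 448 to 583 CPM in WT livers and 1.44 to 2.12 CPM in p62KO livers. In HSC it lay at 316 to 340 CPM in WT and 0.211 to 0.835 CPM in p62KO libraries. The HSC libraries held Col1a1 at 2256 to 8026 CPM and Acta2 at 713 to 4283 CPM, genes of activated stellate cells. Of 7 stellate cell and fibroblast markers, 4 were under 1 CPM in each HSC library. Des was among these 4, as was the quiescent marker Lrat, at 0 in all 8 libraries, and Pdgfrb was not. Replicates of 1 group differed unequally: the chi-square per degree of freedom between their counts was 1.66 in WT vehicle, 11.7 in WT calcipotriol, 58 in p62KO vehicle and 190 in p62KO calcipotriol HSC, against 25.1 to 195 in liver. In earlier results of these data, p62KO vehicle replicate 1 and p62KO calcipotriol replicate 2 had stood apart, and results that rest on them are given with and without them.

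MHC class I molecules show peptides from inside the cell to CD8 T cells. A heavy chain such as H2-K1 or H2-D1 pairs with the light chain B2m; the proteasome, with its interferon-inducible subunits Psmb8, Psmb9 and Psmb10, cuts the peptides, the Tap1 and Tap2 transporter carries them into the endoplasmic reticulum, and tapasin (Tapbp) helps to load them. MHC class II molecules, made of chains such as H2-Aa, H2-Ab1 and H2-Eb1, show peptides from outside the cell to CD4 T cells. The invariant chain Cd74 keeps their groove blocked until H2-DM, the pair of H2-DMa and H2-DMb1, exchanges its remnant for peptide. Nlrc5 is the transactivator of class I genes and Ciita that of class II genes, and both work through factors bound to a shared promoter module. In liver, class I is carried by most cells, whereas class II is mainly a feature of macrophages, dendritic cells and B cells.

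Of the 54 members, 50 had a position in the GENCODE M21 annotation of GRCm38, the mm10 assembly, and 45 of these lay on chromosome 17 between 33915899 and 37483552. H2-K1 lies at chr17:33996017-34000347 on the minus strand, near the start of this block, and H2-D1 at chr17:35262730-35267499 on the plus strand. Between them lie the class II genes, with H2-Ab1 at chr17:34257689-34269419, H2-Aa at chr17:34282744-34287823 and H2-Eb1 at chr17:34305867-34316674. Tap1 and Psmb9 are neighbours read in opposite directions, with only 225 bases between their RefSeq starts.

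MHC genes are known to be controlled through short elements close to the start of the gene, so the 190 bases before the RefSeq start of 8 of them are printed here, 5′ to 3′ on the strand of the gene (RefSeq, GRCm38.p6). Windows of 300 bases around the start, 250 before and 50 after it, were held for 37 members. The search covered 5 elements in all 32851 such windows on both strands. They were the kappa B core GGGNNTTCC, found in 5.82% of all windows, the core of the interferon-stimulated response element TTTCNNTT (23.9%), an X1 core AGNAAC (48.1%), the cyclic AMP response element core TGACG (20.8%) and the CCAAT box (37.4%). Capitals mark matches on either strand, and a match is only a match of letters. The class I heavy chain genes H2-K1 (chr17:34000348-34000537, minus strand), H2-D1 (chr17:35262904-35263093, plus) and H2-Q4 (chr17:35379427-35379616, plus) are shown beside H2-Q10 (chr17:35469899-35470088, plus), which gives a secreted class I chain, and the light chain gene B2m (chr2:122147497-122147686, plus).
H2-K1: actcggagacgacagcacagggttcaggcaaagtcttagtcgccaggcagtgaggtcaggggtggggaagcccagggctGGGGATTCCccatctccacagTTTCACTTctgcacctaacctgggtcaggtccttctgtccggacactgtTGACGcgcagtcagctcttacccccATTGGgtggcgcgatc
H2-D1: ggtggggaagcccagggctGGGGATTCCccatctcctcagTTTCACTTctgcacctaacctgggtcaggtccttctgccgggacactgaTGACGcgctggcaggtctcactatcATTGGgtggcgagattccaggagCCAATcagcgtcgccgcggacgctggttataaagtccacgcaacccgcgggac
H2-Q4: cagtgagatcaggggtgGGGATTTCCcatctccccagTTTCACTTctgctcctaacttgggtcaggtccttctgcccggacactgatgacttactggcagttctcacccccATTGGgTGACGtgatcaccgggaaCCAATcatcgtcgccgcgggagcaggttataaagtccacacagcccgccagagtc
H2-Q10: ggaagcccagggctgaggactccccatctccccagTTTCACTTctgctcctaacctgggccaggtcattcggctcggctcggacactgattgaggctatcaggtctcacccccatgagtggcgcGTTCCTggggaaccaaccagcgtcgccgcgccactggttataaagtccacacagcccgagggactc
B2m: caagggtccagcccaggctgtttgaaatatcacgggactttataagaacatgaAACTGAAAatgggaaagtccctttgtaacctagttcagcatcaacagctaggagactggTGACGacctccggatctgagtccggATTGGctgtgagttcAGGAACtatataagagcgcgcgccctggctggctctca
H2-K1, H2-D1 and H2-Q4 each held the kappa B core, then the interferon-stimulated core, then TGACG and a CCAAT box on the opposite strand, the last of these before TGACG in H2-Q4. In them the kappa B core began at base -111, -171 and -173 from the start. H2-Q10 had the interferon-stimulated core at -155 but none of the kappa B core, TGACG or CCAAT in its window. Among 22 class I genes with a window, 6 held the kappa B core, 14 the interferon-stimulated core and 19 a CCAAT box.

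The class II genes H2-Aa (chr17:34287824-34288013, minus strand), H2-Eb1 (chr17:34305677-34305866, plus) and H2-DMb1 (chr17:34153001-34153190, plus) are shown for the X and Y boxes, elements through which Ciita is known to act. The Y box is a CCAAT box read from the other strand.
H2-Aa: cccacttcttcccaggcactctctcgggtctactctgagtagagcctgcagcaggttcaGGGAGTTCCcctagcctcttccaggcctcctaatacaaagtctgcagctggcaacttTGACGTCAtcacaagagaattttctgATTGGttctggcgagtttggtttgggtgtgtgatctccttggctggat
H2-Eb1: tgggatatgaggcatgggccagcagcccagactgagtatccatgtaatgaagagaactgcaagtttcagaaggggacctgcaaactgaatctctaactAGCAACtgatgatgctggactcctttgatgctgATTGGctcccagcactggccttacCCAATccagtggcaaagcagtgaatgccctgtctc
H2-DMb1: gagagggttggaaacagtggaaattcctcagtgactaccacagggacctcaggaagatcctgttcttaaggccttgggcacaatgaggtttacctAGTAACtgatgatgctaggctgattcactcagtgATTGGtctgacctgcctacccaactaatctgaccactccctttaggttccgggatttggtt
H2-Eb1 and H2-DMb1 had an X1 core at -92 and -95 and a reversed CCAAT box at -59 and -61. Neither held TGACG. H2-Aa had no X1 core in its window and held TGACG on both strands at -74 and -71, the matches overlapping, and the reversed CCAAT box at -48. Among 8 class II chain and accessory genes with a window, 5 held the X1 core and 7 a CCAAT box.

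Outside that block, B2m is on chromosome 2, Psmb10 and Nlrc5 on chromosome 8, Ciita on chromosome 16 and Cd74 on chromosome 18. Many members were not detected. In liver, 37 of 54 members had at least 1 count and 33 passed the filter on low counts (edgeR's filterByExpr) and were tested, and in HSC 34 had a count and 20 were tested. In both tissues 14 were at 0 in every library, among them H2-Q6, H2-Q7 and most of the H2-M10 genes, whose products are known from the vomeronasal organ. Levels of different genes are compared per kilobase (kb) of exon. In WT livers B2m led with 2280 ± 193 CPM per kb (SD, n = 3), followed by H2-K1 at 538 ± 38.8, H2-Q10 at 317 ± 35.7, H2-D1 at 132 ± 1.5 and H2-T23, a nonclassical class I gene, at 95.7 ± 10.9. Each neighbour in this order was separated by more than its SD. In WT vehicle HSC, B2m stood at 785 ± 11.4 CPM per kb (SD, n = 2) and both heavy chains far lower, H2-K1 at 9.83 ± 0.306 and H2-D1 at 8.52 ± 0.0492. H2-Q10 held only 2 counts there. The tables of liver and HSC were scaled separately, so levels across them are set side by side without a test.

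Class II genes rose in p62KO livers. In p62KO livers, 6 of 33 tested members were higher and 2 were lower by edgeR's quasi-likelihood test at an adjusted p under 0.05, where 4.48% of all 12851 genes tested were higher and 3.45% lower. The 6 were H2-Aa, H2-Ab1, H2-Eb1, Cd74, H2-DMb1 and Ciita, and the 2 were H2-Ke2 and H2-Ke6. The median log2 fold change was 0.44 over the tested members, 27 of them above 0, and 0.02 over all genes. The median was 1.09 for the 4 tested class II chain genes and 1.12 for the 5 tested class II accessory genes.

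H2-Aa, the alpha chain of the I-A molecule, was at 63.9, 48.6 and 50.9 CPM in WT livers and at 139, 91.4 and 116 CPM in p62KO livers. Every p62KO library was above every WT library, a log2 fold change of 1.09 ± 0.185 (SE, edgeR adjusted p = 0.0331). H2-Ab1, the beta chain of the same molecule, was at 53.9, 36.2 and 40.3 CPM in WT and 121, 71.6 and 85.1 CPM in p62KO (1.09 ± 0.231, edgeR adjusted p = 0.0412). H2-Eb1, the beta chain of I-E, was at 60.5, 45.6 and 49.0 CPM in WT and 141, 91.1 and 116 CPM in p62KO (1.17 ± 0.188, edgeR adjusted p = 0.0331). The groups did not overlap for any of the 3 chains, and p62KO replicate 1 was the highest library for each. How many of all genes tested in liver were likewise without overlap was not counted, here and below. H2-Ea-ps, the I-E alpha pseudogene, was at 0 in every library. The last class II chain gene tested, H2-Eb2, was under 1 CPM in every library and did not pass (0.20 ± 0.404, edgeR adjusted p = 0.758).

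Cd74, the invariant chain, was at 81.6 ± 9.54 CPM per kb in WT livers, above H2-Eb1 at 26.6. In CPM it was at 153, 121 and 137 CPM in WT livers and 383, 236 and 272 CPM in p62KO livers. Its groups did not overlap (1.12 ± 0.204, edgeR adjusted p = 0.0346). H2-DMb1, the beta chain of the peptide exchanger, was at 7.03, 5.26 and 4.96 CPM in WT and 17.4, 11.4 and 12.3 CPM in p62KO (1.25 ± 0.221, edgeR adjusted p = 0.0334). Of the transcript windows of 75 bases of H2-DMb1, the read length used, 15.8% also occur in its neighbour H2-DMb2, so reads could be split between the pair. H2-DMa, its alpha partner, was at 6.02, 3.0 and 3.34 CPM in WT and 12.1, 7.31 and 8.93 CPM in p62KO, did not overlap either, and just missed the threshold (1.19 ± 0.315, edgeR adjusted p = 0.0571). Ciita, the transactivator, was at 1.97, 1.87 and 2.45 CPM in WT and 7.93, 4.91 and 4.50 CPM in p62KO (1.46 ± 0.284, edgeR adjusted p = 0.0380). The antagonist H2-DO, made of H2-Oa and H2-Ob, remained under 2 CPM in all 6 libraries and neither gene passed.

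These calls depended on which livers were fitted. Leaving out WT replicate 1, 2 or 3 or p62KO replicate 1 or 2 ended all 8 member calls in edgeR. Leaving out p62KO replicate 3 raised them to 13, in a fit that also called more of all genes. Over these 6 fits the log2 fold changes kept their direction, between 0.85 and 1.27 for H2-Ab1, 0.93 and 1.22 for H2-Aa, 1.00 and 1.31 for H2-Eb1, 0.89 and 1.25 for Cd74, 1.04 and 1.42 for H2-DMb1 and 1.16 and 1.60 for Ciita, with edgeR adjusted p up to 0.145. The 5 fits without calls among the members had only 3 to 110 calls over all genes.

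**Figure D1:**
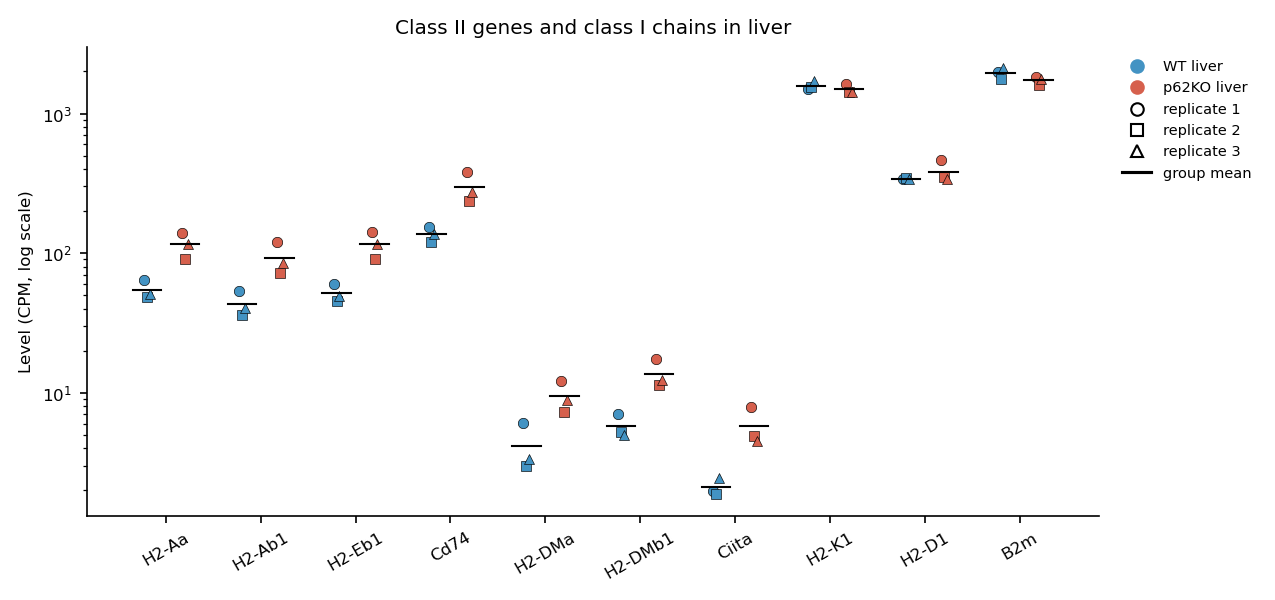
Levels in CPM on a log axis of 7 class II genes and regulators and 3 class I chains in each liver library, WT in blue and p62KO in red, with bars for the group means (n = 3). The p62KO points lie above the WT points for the class II genes and Ciita, while those of H2-K1, H2-D1 and B2m overlap.

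Markers of leukocytes, and of stellate cells and cholangiocytes, were higher in the same livers. Of 5 general leukocyte markers, Laptm5 and Cd53 were higher in p62KO livers, with log2 fold changes of 0.99 ± 0.160 and 0.80 ± 0.159 (edgeR adjusted p = 0.0331 and 0.0389), and of 9 macrophage markers Cd68 and Csf1r were higher, by 1.19 ± 0.201 and 0.82 ± 0.187 (edgeR adjusted p = 0.0331 and 0.0446). The summed leukocyte list was at 67.7 to 126 CPM in WT and 138 to 179 CPM in p62KO livers. The dendritic cell list was at 12.0 to 15.7 CPM in WT and 21.4 to 29.2 CPM in p62KO with none of its 8 genes called. The macrophage list overlapped between groups, at 299 to 1097 CPM in WT and 794 to 970 CPM in p62KO, and within it the scavenger receptor Marco reached 357 CPM in WT replicate 2 and lay between 1.57 and 14.2 CPM in the other 5 libraries. The B cell list, at 2.84 to 5.49 CPM in WT and 4.38 to 9.59 CPM in p62KO, overlapped too. The endothelial list overlapped as well, at 113 to 147 CPM in WT and 129 to 181 CPM in p62KO. So did the hepatocyte list, at 96780 to 121907 CPM in WT and 87167 to 128389 CPM in p62KO. The lists of stellate cells and fibroblasts and of cholangiocytes were higher. The stellate cell and fibroblast list was at 118 to 133 CPM in WT and 196 to 392 CPM in p62KO, with all 7 genes above 0, a median log2 fold change of 0.83 and 2 calls, Col1a1 (2.54 ± 0.405, edgeR adjusted p = 0.0331) and Pdgfrb (0.83 ± 0.195, edgeR adjusted p = 0.0469). The cholangiocyte list was at 57.7 to 107 CPM in WT and 161 to 522 CPM in p62KO, with all 5 genes above 0, a median of 1.76 and 1 call, Spp1 (2.24 ± 0.483, edgeR adjusted p = 0.0420). The summed T and NK cell list was 29.6 CPM in p62KO replicate 1, the library with the highest class II levels, and 5.66 to 8.70 CPM in the other 5. In bulk tissue, more cells of a type and more RNA per cell cannot be told apart, and the part of these cells in the class II result was not tested.

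**Figure D2:**
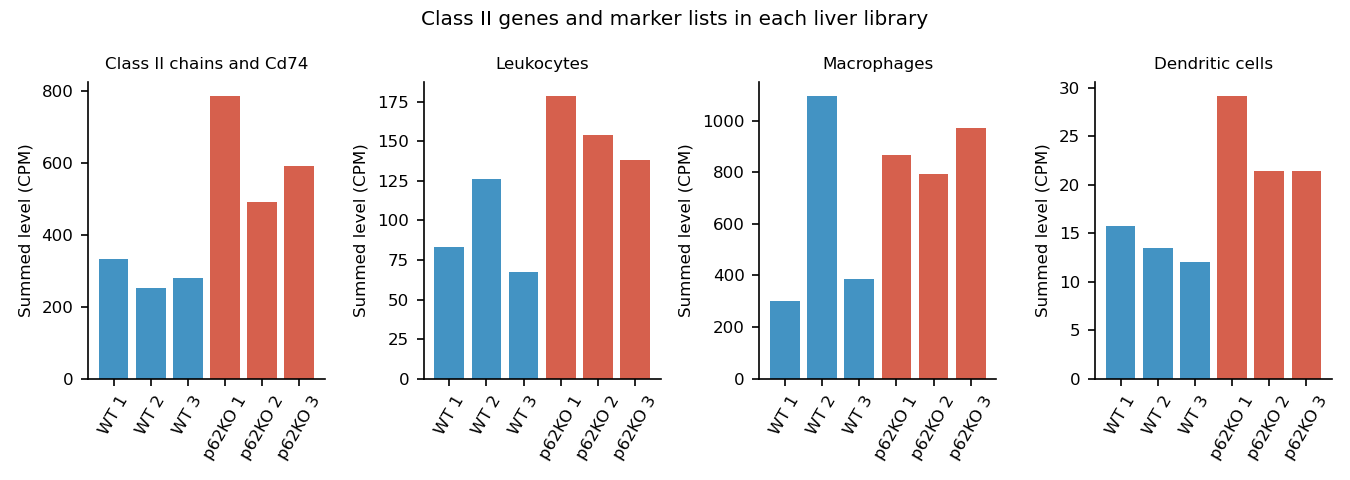
Summed levels in CPM of the 5 class II chain genes with Cd74 and of 3 marker lists in each of the 6 liver libraries, bars from 0, WT in blue and p62KO in red. The class II, leukocyte and dendritic cell sums are higher in every p62KO library than in any WT library, and the macrophage sum is highest in WT replicate 2.

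Other genes of class II processing followed in part. Of 8 genes of class II processing and costimulation in the table, 3 were higher in p62KO livers and 5 did not pass. Ctss, the protease that trims the invariant chain, was at 76.2, 79.9 and 63.5 CPM in WT and 196, 166 and 170 CPM in p62KO (1.28 ± 0.135, edgeR adjusted p = 0.0216). The lysosomal thiol reductase Ifi30 rose by 0.75 ± 0.167 (edgeR adjusted p = 0.0438). The costimulatory receptor Cd40 rose by 2.08 ± 0.480 from a level under 1 CPM (edgeR adjusted p = 0.0450).

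Class I genes gave no call in liver. None of the 13 tested class I heavy chain genes, B2m, the 3 loading genes or the 3 immunoproteasome subunits passed. Of all 12851 genes tested in liver, 7.94% passed, so the absence of calls among so few genes is close to that share. H2-K1 was at 1496, 1538 and 1711 CPM in WT and 1619, 1416 and 1431 CPM in p62KO livers (-0.09 ± 0.166, edgeR adjusted p = 0.740). H2-D1 was at 338, 346 and 341 CPM in WT and 462, 349 and 339 CPM in p62KO (0.17 ± 0.159, edgeR adjusted p = 0.489). B2m was at 1992, 1781 and 2108 CPM in WT and 1837, 1612 and 1774 CPM in p62KO (-0.17 ± 0.172, edgeR adjusted p = 0.515). The groups overlapped for all 3, and H2-D1 was high only in p62KO replicate 1. Of the 11 other class I genes tested, 10 had a log2 fold change above 0, with a median of 0.49 against 0.02 for all genes, and 0 passed. Without p62KO replicate 3, edgeR called H2-M3, H2-Q4, H2-Q5 and Tap1, in a fit that also called more of all genes. The summed class I heavy chains were at 3442 to 3936 CPM in WT and 3405 to 4071 CPM in p62KO.

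In liver, p62KO replicate 1 was the highest library for some genes of the class I pathway, while H2-K1 and B2m were highest in WT replicate 3. Nlrc5 was at 19.2, 23.6 and 20.1 CPM in WT livers and 38.4, 24.7 and 22.3 CPM in p62KO livers (0.44 ± 0.213, edgeR adjusted p = 0.194). Tap1 was at 22.9, 19.1 and 19.3 CPM in WT and 46.8, 29.3 and 22.5 CPM in p62KO (0.69 ± 0.256, edgeR adjusted p = 0.117). H2-Q4 was at 54.8, 55.6 and 46.2 CPM in WT and 108, 65.4 and 47.1 CPM in p62KO (0.50 ± 0.282, edgeR adjusted p = 0.257). In each case p62KO replicate 1 was the highest of the 6 libraries, and at least 1 p62KO library lay within the WT range. Cxcl9, a chemokine induced by interferon-gamma that was picked after its values were seen, was likewise 137 CPM in p62KO replicate 1 and 15.3 to 32.6 CPM in the other 5 libraries. Ifng itself was under 1 CPM in all 6.

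The immunoproteasome did not pass, and its ratio to the constitutive subunits differed by library. Psmb8, the inducible counterpart of Psmb5, was at 39.7, 41.3 and 37.8 CPM in WT livers and 63.8, 43.3 and 41.5 CPM in p62KO livers (0.32 ± 0.174, edgeR adjusted p = 0.236). Psmb9, the counterpart of Psmb6, was at 18.4, 17.3 and 14.4 CPM in WT and 25.8, 13.1 and 13.1 CPM in p62KO (0.05 ± 0.276, edgeR adjusted p = 0.909), a direction that turned to -0.35 without p62KO replicate 1. The constitutive subunit Psmb5, picked after its values were seen, had a log2 fold change of -0.50 ± 0.123 (edgeR adjusted p = 0.0519), and 0 of 7 constitutive subunits and activators passed. The ratio of Psmb8 to Psmb5 per kb was 0.113, 0.117 and 0.118 in WT livers and 0.308, 0.166 and 0.162 in p62KO livers. That of Psmb9 to Psmb6 was 0.0826 to 0.100 in WT, and in p62KO 0.202 in replicate 1 and 0.0932 and 0.0888 in the others. The ratio of Psmb10 to Psmb7 was 0.485 to 0.572 in WT and 0.858, 0.516 and 0.412 in p62KO. The groups were separate for the first ratio and overlapped for the other two, and none was tested.

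**Figure D3:**
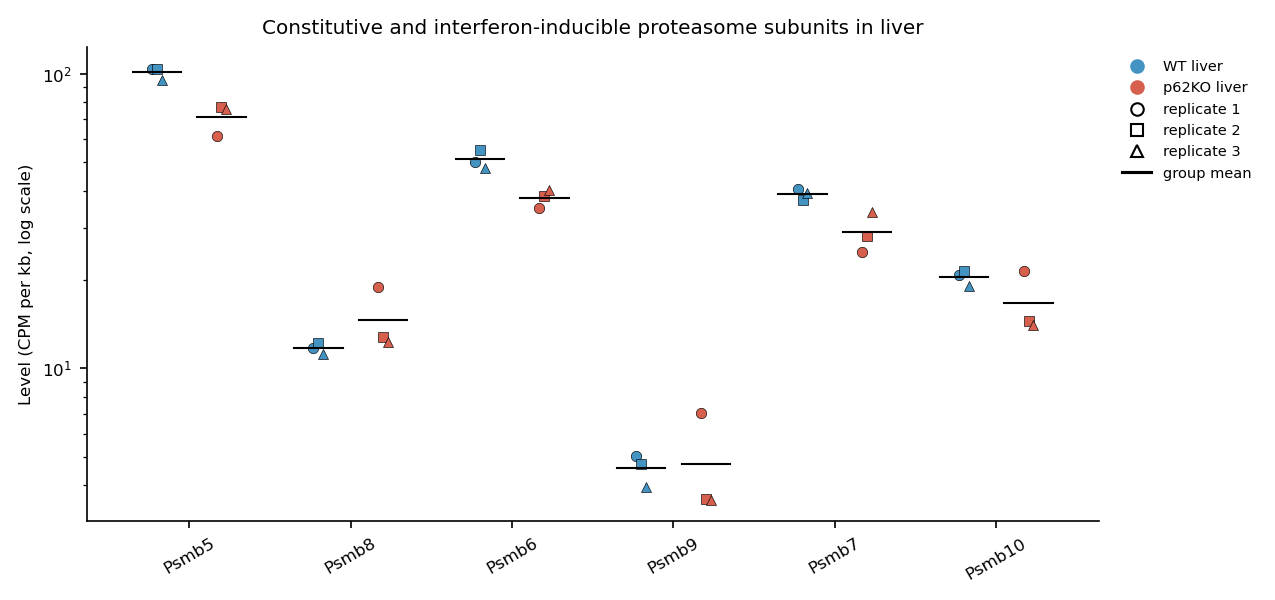
Levels in CPM per kb on a log axis of the constitutive proteasome subunits Psmb5, Psmb6 and Psmb7, each beside its inducible counterpart Psmb8, Psmb9 or Psmb10, in each liver library with group means (n = 3). The constitutive subunits lie lower in p62KO livers, and p62KO replicate 1 is the highest p62KO library for each inducible subunit.

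The genes that fell carry an H2- symbol by their place in the MHC and do not present antigen. H2-Ke2, which is Pfdn6 in the annotation and encodes a subunit of the chaperone prefoldin, was at 33.9, 37.1 and 29.4 CPM in WT and 21.1, 20.2 and 24.3 CPM in p62KO livers (-0.61 ± 0.128, edgeR adjusted p = 0.0405). H2-Ke6, a hydroxysteroid dehydrogenase also known as Hsd17b8, was at 66.2, 71.2 and 62.7 CPM in WT and 34.9, 40.0 and 51.5 CPM in p62KO (-0.66 ± 0.156, edgeR adjusted p = 0.0470). Neither gene overlapped between the groups, and both calls were among those ended by leaving out any of the 5 livers named above. Of the H2-Ke6 transcript windows, 65.5% also occur in the overlapping gene model Gm20427, so its count is uncertain.

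In HSC the classical class I heavy chains were higher in p62KO cells, and no class II chain had enough counts to be tested. With vehicle, 4 of 20 tested members were higher and 0 lower in p62KO HSC, against 6.95% and 5.94% of the 12681 genes tested. They were H2-K1, H2-D1, H2-T10 and H2-DMb1. All 20 tested members had a log2 fold change above 0, with a median of 0.95 against 0.03 for all genes. With calcipotriol, 3 of 20 were higher and 0 lower, against 10.3% and 9.53% of all genes, and these were H2-K1, H2-D1 and H2-T10. There 16 of 20 lay above 0, with a median of 0.62 against -0.01. H2-T10 and Cd74 held 0 to 3 counts in the WT groups and passed the filter on low counts only through p62KO libraries. The filter thus set their direction, and both are included in these numbers of members. The vehicle and calcipotriol comparisons share no libraries but share the estimate of the spread.

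H2-K1, a classical heavy chain, was at 28.3 and 29.5 CPM in WT vehicle and 150 and 64.9 CPM in p62KO vehicle HSC. Both p62KO libraries were above both WT libraries, though they differed from each other by more than the WT libraries did (1.89 ± 0.429, edgeR adjusted p = 0.0250). Groups of 2 libraries can separate easily without a difference. The share of all genes without overlap in HSC was not counted, here and below. With calcipotriol it was at 53.2 and 32.7 CPM in WT and 91.4 and 156 CPM in p62KO, again without overlap (1.53 ± 0.422, edgeR adjusted p = 0.0380). The library that was high in p62KO was replicate 1 with vehicle and replicate 2 with calcipotriol. Without both of these, which left a single p62KO library per treatment, the log2 fold changes were 1.17 and 1.07.

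H2-D1, the other classical heavy chain, was at 22.1 and 21.9 CPM in WT vehicle and 102 and 62.6 CPM in p62KO vehicle HSC (1.90 ± 0.323, edgeR adjusted p = 0.00917). Under calcipotriol the levels were 37.8 and 26.5 CPM in WT and 79.3 and 127 CPM in p62KO (1.69 ± 0.318, edgeR adjusted p = 0.0111). The groups were separate in both comparisons, and the same libraries were high as for H2-K1. Without both of those libraries, again with a single p62KO library per treatment, the log2 fold changes were 1.52 and 1.29. Of the 75-base windows, 3.10% of those of H2-K1 and 5.40% of those of H2-D1 occur in another gene. H2-K1 and H2-D1 are highly polymorphic between mouse strains, and the strain of the cells was not given in the sources used here.

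H2-T10, a nonclassical class I pseudogene or gene depending on the strain, was at 0 and 0.0670 CPM in WT vehicle and 0.939 and 0.686 CPM in p62KO vehicle HSC. These are 1 count in the WT and 31 in the p62KO group, a ratio of 24.1 with a 95% counting interval of 4.02 to 983 (edgeR adjusted p = 0.0332). With calcipotriol, it was at 0 in both WT libraries and at 0.720 and 1.00 CPM in p62KO, or 47 counts, at least 10.3-fold higher against a floor of 3 counts over the group (edgeR adjusted p = 0.0129). H2-T10 shares 16.0% of its windows with H2-T22, the neighbour whose product is a ligand of gamma-delta T cells. H2-T22 moved otherwise, with 0.340 and 0.870 CPM in WT and 0.730 and 0.739 CPM in p62KO with vehicle, and 0.517 and 0.816 CPM in WT and 0.303 and 0.0358 CPM in p62KO with calcipotriol, and did not pass. Reads could be split between the pair. H2-T10 was tested only because its p62KO libraries passed the filter, so it could only come out higher.

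Among the other class I genes, H2-Q4 was at 7.88 and 6.36 CPM in WT vehicle and 41.0 and 10.8 CPM in p62KO vehicle HSC (1.86 ± 0.577, edgeR adjusted p = 0.0683). Its groups did not overlap, and DESeq2 called it (adjusted p = 0.00383). H2-T23 was at 3.67 and 3.41 CPM in WT and 12.5 and 3.64 CPM in p62KO, high in replicate 1 alone. H2-Q10, which was at 1201 CPM or more in every liver, had at most 2 counts in any HSC group.

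B2m, the light chain of these molecules, did not pass in HSC. It was at 682 and 669 CPM in WT vehicle and 764 and 612 CPM in p62KO vehicle HSC, groups that overlapped (0.03 ± 0.254, edgeR adjusted p = 0.956). With calcipotriol it was at 757 and 720 CPM in WT and 619 and 368 CPM in p62KO (-0.58 ± 0.255, edgeR adjusted p = 0.132). Without both libraries that stood apart, the direction with vehicle turned to -0.14, and with calcipotriol the change was -0.27. Each p62KO group then held a single library. Without p62KO calcipotriol replicate 1, which likewise left a single library there, the change with calcipotriol was -1.0. Per kb, the ratio of B2m to the sum of H2-K1 and H2-D1 was 43.7 and 41.9 in WT vehicle and 9.83 and 15.3 in p62KO vehicle HSC, and 26.9 and 39.1 in WT and 11.6 and 4.17 in p62KO with calcipotriol. In the 6 livers the ratio was 2.92 to 3.62.

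Leaving out single libraries ended some of these calls. In the vehicle comparison, leaving out WT vehicle replicate 1 or 2 ended all 4, although the log2 fold changes stayed at 1.17 or more for H2-K1, 1.52 for H2-D1 and 1.39 for H2-DMb1 over all 8 such fits, with edgeR adjusted p up to 0.162, 0.0924 and 0.154. Leaving out p62KO vehicle replicate 1 also ended those of H2-K1 and H2-T10, and leaving out either WT calcipotriol library that of H2-T10. Leaving out p62KO vehicle replicate 2, the library with the lower class I levels, added members. The spread of that group was then assumed from the other groups. In the calcipotriol comparison, leaving out WT calcipotriol replicate 1 or 2 ended all 3 calls, with edgeR adjusted p up to 0.112 for H2-D1 and 0.0966 for H2-T10. Leaving out either WT vehicle library or p62KO calcipotriol replicate 2 ended that of H2-K1, whose adjusted p reached 0.224 and whose log2 fold change fell to 1.07 at the lowest. Leaving out p62KO calcipotriol replicate 1, or either p62KO vehicle library, added members too, again with a single library in a group and its spread assumed. DESeq2 did not call H2-T10 with vehicle (adjusted p = 0.0573).

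**Figure D4:**
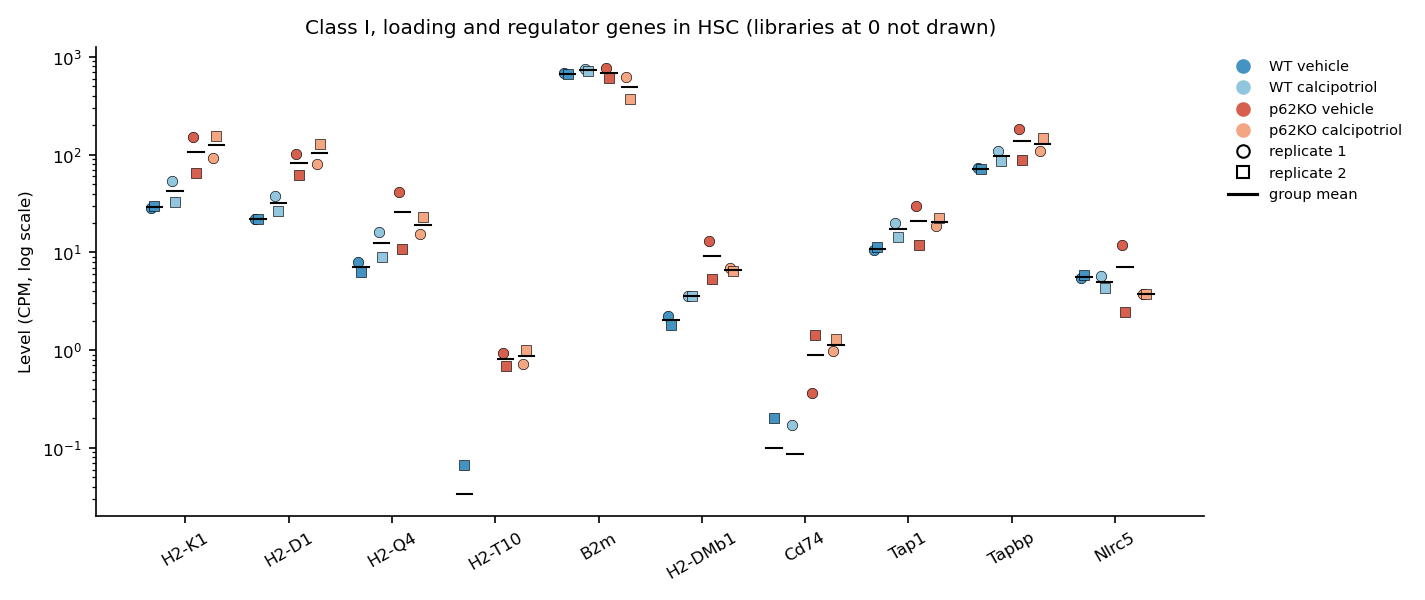
Levels in CPM on a log axis of 10 members in each of the 8 HSC libraries, with bars for the group means (n = 2); libraries at 0 are not drawn. H2-K1 and H2-D1 are higher in all 4 p62KO libraries than in the 4 WT libraries, while B2m stays between 368 and 764 CPM and Nlrc5 is high only in p62KO vehicle replicate 1.

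Peptide loading and cutting genes gave no call in HSC. Tap1, an arm of the peptide transporter, was at 10.5 and 11.3 CPM in WT vehicle and 29.9 and 12.0 CPM in p62KO vehicle HSC (0.94 ± 0.395, edgeR adjusted p = 0.151). Tapbp was at 72.7 and 70.8 CPM in WT and 185 and 87.7 CPM in p62KO (0.93 ± 0.333, edgeR adjusted p = 0.102), and DESeq2 called it (adjusted p = 0.0387). The groups did not overlap for either gene, but replicate 2 of p62KO lay close to the WT libraries. Psmb8 was at 2.38 and 2.81 CPM in WT and 7.72 and 2.59 CPM in p62KO (0.99 ± 0.515, edgeR adjusted p = 0.238). Psmb9 was at 0.204 and 0.201 CPM in WT and 1.93 and 0.158 CPM in p62KO (2.33 ± 1.29, edgeR adjusted p = 0.264), a direction that turned to -0.33 without p62KO vehicle replicate 1. Psmb8 and Psmb9 overlapped between the groups. With calcipotriol none of Tap1, Tap2, Tapbp, Psmb8, Psmb9 and Psmb10 passed, with log2 fold changes between -0.24 and 0.62. Without both libraries that stood apart Tap2 was called lower, and without p62KO calcipotriol replicate 1 Psmb10 was called higher. Both fits held a single p62KO calcipotriol library. Of 7 partners in peptide loading, such as calreticulin and tapasin-related protein, 0 passed in either HSC comparison or in liver.

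The class I transactivator did not separate the genotypes. Nlrc5 was at 5.43 and 5.82 CPM in WT vehicle and 11.9 and 2.43 CPM in p62KO vehicle HSC, so that its p62KO libraries lay on either side of WT (0.35 ± 0.595, edgeR adjusted p = 0.736). Without p62KO vehicle replicate 1 and p62KO calcipotriol replicate 2 it was lower, at -1.20, with a single library left in each p62KO group. With calcipotriol it was at 5.74 and 4.30 CPM in WT and 3.79 in each p62KO library (-0.40 ± 0.598, edgeR adjusted p = 0.646).

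Class II genes were at the edge of detection in HSC. The class II chains and Cd74 summed to 0.0544 to 0.287 CPM in WT and 1.21 to 1.53 CPM in p62KO libraries, and no class II chain was tested. Ciita was at 0 in 7 of the 8 libraries and had 2 counts in the other. Cd74 was at 0 and 0.201 CPM in WT vehicle and 0.365 and 1.42 CPM in p62KO vehicle HSC, which is 3 against 34 counts, a ratio of 8.82 with a 95% counting interval of 2.77 to 44.9. It did not pass (edgeR adjusted p = 0.136). Calcipotriol-treated cells had 0.172 and 0 CPM in WT and 0.985 and 1.29 CPM in p62KO, or 3 against 62 counts, a ratio of 13.6 with an interval of 4.45 to 67.8 (edgeR adjusted p = 0.0605). DESeq2 called this one. Such intervals cover counting error only, because they pool the counts of a group and leave out the spread between its libraries. The reads carry no molecular identifiers, so copies of 1 molecule are not told apart.

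H2-DMb1 was the class II gene with a call in HSC. It was at 2.24 and 1.81 CPM in WT vehicle and 13.1 and 5.28 CPM in p62KO vehicle HSC, without overlap (2.18 ± 0.444, edgeR adjusted p = 0.0180). In a fit of these 2 groups alone it just missed the threshold (edgeR adjusted p = 0.0502). Under calcipotriol the levels were 3.62 and 3.59 CPM in WT and 6.85 and 6.51 CPM in p62KO, which did not pass (0.89 ± 0.417, edgeR adjusted p = 0.154). It was called there without both libraries that stood apart, and without p62KO vehicle replicate 1 or 2. Each of those fits left a single library in a p62KO group. H2-DMa, its partner, did not pass in either (0.69 ± 0.542 with vehicle, edgeR adjusted p = 0.432). The summed leukocyte list lay between 0.581 and 1.83 CPM over the 8 HSC libraries, Cd52 was at 0 in all 8, and Ptprc, the pan-leukocyte marker, was at 0 in 7 and 0.109 CPM in the last. The summed macrophage list was highest in p62KO vehicle replicate 1, at 19.9 CPM, and 3.28 to 12.2 CPM in the other 7 libraries, and its part in these results was not tested.

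Few transcription factors of the MHC genes passed. Of 13 MHC transcription factors, 0 passed in liver and 0 in vehicle HSC. With calcipotriol, Rfxap, a subunit of the RFX complex at the X1 box, was at 17.1 and 20.1 CPM in WT and 33.7 and 45.4 CPM in p62KO HSC (1.09 ± 0.212, edgeR adjusted p = 0.0125). Nfyb, a subunit of the CCAAT-binding factor NF-Y, was at 71.7 and 68.7 CPM in WT and 38.1 and 27.4 CPM in p62KO (-1.10 ± 0.202, edgeR adjusted p = 0.0103). Irf1 did not pass in any genotype comparison, with log2 fold changes between 0.01 and 0.38.

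Of 10 tested genes of the interferon-gamma pathway, the receptor chain Ifngr1 was higher in p62KO liver (1.10 ± 0.245, edgeR adjusted p = 0.0439) and lower in p62KO HSC, by -0.58 ± 0.160 with vehicle and -0.63 ± 0.160 with calcipotriol (edgeR adjusted p = 0.0493 and 0.0295), a difference between the tissues that was not tested. In vehicle HSC the chemokine Cxcl10 was higher, at 5.43 and 6.09 CPM in WT and 63.0 and 10.6 CPM in p62KO (2.67 ± 0.730, edgeR adjusted p = 0.0465). With calcipotriol Jak2, the receptor's kinase, was lower (-1.22 ± 0.267, edgeR adjusted p = 0.0189). Ifng was at 0 in all 8 HSC libraries. Among class I-like genes outside the H2 block, Mr1, which presents vitamin metabolites, was higher in p62KO liver (1.18 ± 0.252, edgeR adjusted p = 0.0412) and Cd1d1, which presents lipids, was lower in calcipotriol-treated p62KO HSC (-1.49 ± 0.378, edgeR adjusted p = 0.0296). Of the genes of class II processing and costimulation, the costimulatory ligand Cd80 was higher in p62KO vehicle HSC (1.62 ± 0.387, edgeR adjusted p = 0.0297) and Ifi30 in calcipotriol-treated p62KO HSC (0.74 ± 0.209, edgeR adjusted p = 0.0411). Of 7 constitutive proteasome genes, Psmb6 was higher in the latter (0.71 ± 0.208, edgeR adjusted p = 0.0457).

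**Figure D5:**
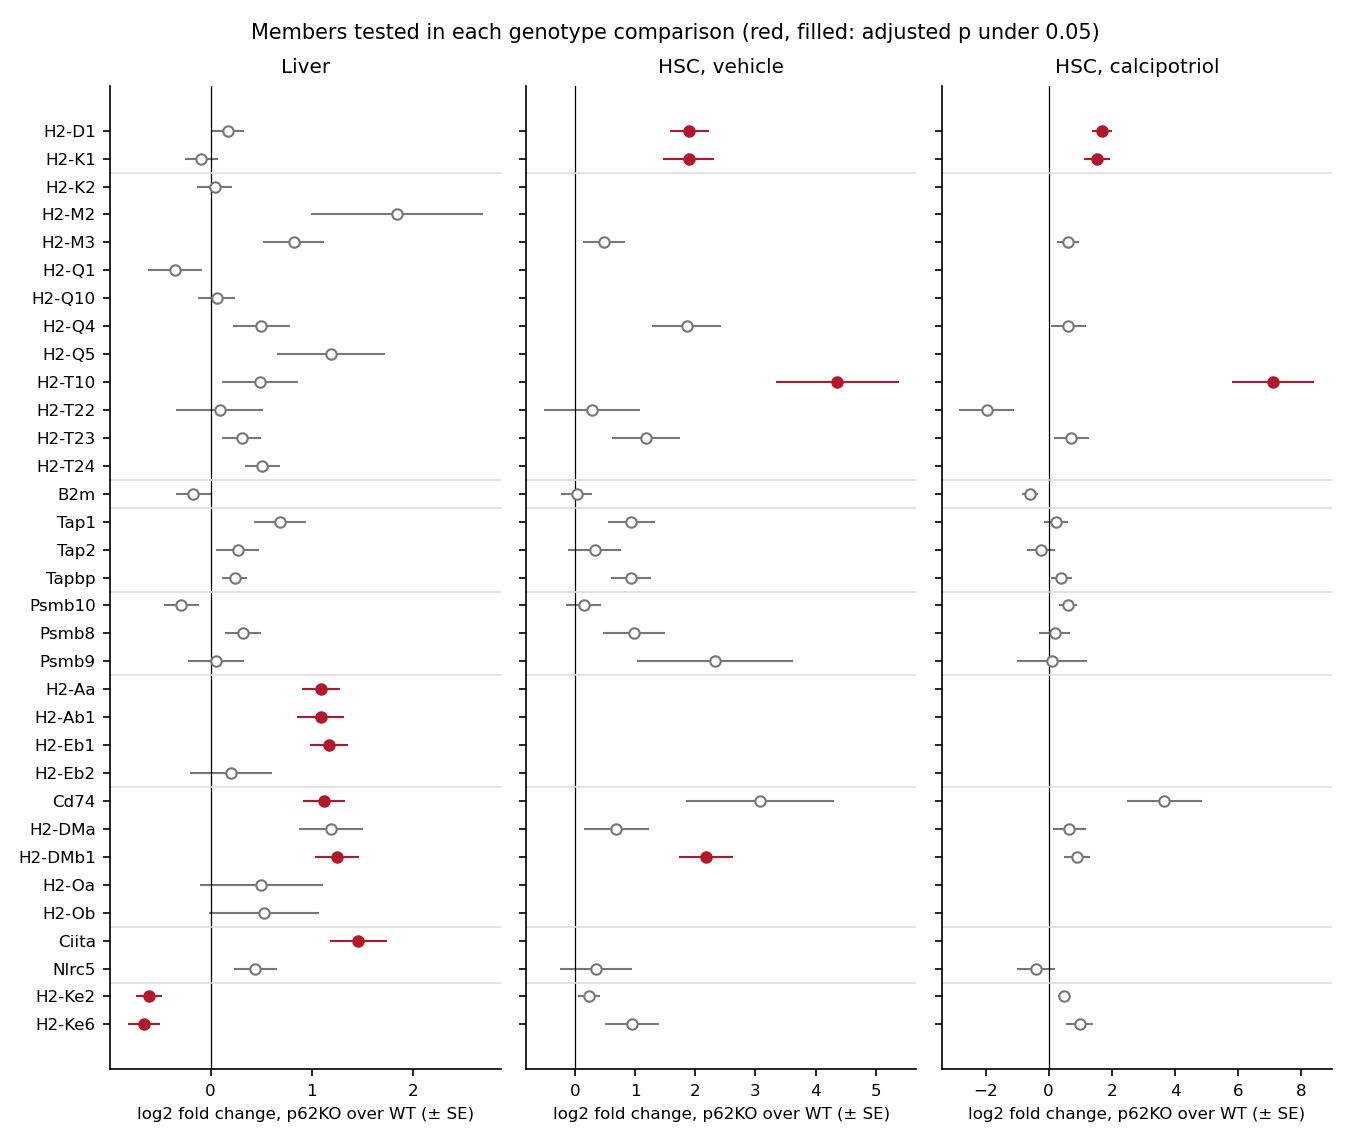
Log2 fold changes of p62KO over WT with SE for every tested member, 33 in liver and 20 in each HSC comparison, ordered by role, with members past an edgeR adjusted p of 0.05 in filled red; the horizontal scales differ between panels. The red points are class II genes, Ciita, H2-Ke2 and H2-Ke6 in liver and class I heavy chains with H2-DMb1 in HSC; the fitted values of H2-T10 and Cd74 in HSC rest on 0 to 3 WT counts and are no measure of size.

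Calcipotriol itself changed no member by the main test. In WT HSC 0 of 20 tested members passed against vehicle, as did 0.00% of all genes by edgeR, with 301 genes and 0 members at an unadjusted p under 0.05, and DESeq2 called 16 genes and 0 members. In p62KO HSC 0 members and 0.00% of all genes passed, with 1714 genes and 1 member at an unadjusted p under 0.05, and DESeq2 called 53 genes and 0 members. The interaction of treatment and genotype likewise gave 0 members and 0.00% of genes by edgeR, with 677 genes and 0 members at an unadjusted p under 0.05, and 0 by DESeq2. Calls of B2m and H2-T22 as lower in the p62KO response, and of B2m in the interaction, appeared only without p62KO calcipotriol replicate 1. That fit left a single library in the group, and its spread was assumed. In WT HSC, H2-K1 was at 53.2 and 32.7 CPM with calcipotriol and at 28.3 and 29.5 CPM with vehicle. Its log2 fold change of 0.57 ± 0.420 did not pass (edgeR unadjusted p = 0.208). In p62KO HSC its treated and untreated libraries overlapped.

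The members stood inside a stretch of chromosome 17 whose other genes were measured as well. Among 80 tested nonmembers between the first and last member, 3 were higher and 2 lower in p62KO liver, with a median log2 fold change of -0.01. In vehicle HSC 4 of 76 were higher and 0 lower, with a median of 0.10. In calcipotriol-treated HSC 8 were higher and 1 lower, with a median of 0.38, and over all 571 tested genes of chromosome 17 it was 0.26. The all-gene median in that comparison was -0.01, and H2-K1 and H2-D1 were at 1.53 and 1.69.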

How the data were processed

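The authors deposited counts per gene symbol, 1 table for liver and 1 for HSC, read here as raw counts because the values are whole and library totals differ. Poly(A) RNA was read as single ends of 75 bases from strand-marking libraries, per the labels' protocols. The submitters' processing notes name mm10; for the aligner, counter and strand setting, the sources used here say nothing. Spreadsheet conversion left 27 symbols written as dates.

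Counts were tested in R 4.3.3 with edgeR 4.0.16 (glmQLFit, glmQLFTest) after TMM scaling and filterByExpr, with the 6 liver libraries in 1 fit and the 8 HSC libraries in another. Tests were two-sided, with Benjamini-Hochberg adjustment over all genes tested in a comparison and a threshold of 0.05. The SE was taken as the absolute log2 fold change over the root of F. The procedure was tested on simulated data. Alternatives were DESeq2 1.42.0 as test and as scaling, upper-quartile scaling, no filter, a replicate block, each library left out, the 2 compared HSC groups alone, and both libraries that stood apart left out. Members, lists and libraries that stood apart were chosen with earlier results of these data known. Every member could be named; of other genes, Sqstm1, Irf1, markers and up to 3 passing genes per list and comparison. The check of same-numbered libraries did not pair them. The result of 1 gene is not reported here.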

Additional observations from a re-analysis of the deposited data

Results flagged for a closer look

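H2-Ke2, the prefoldin subunit gene, was picked because its groups were separate in opposite directions in liver and HSC. Every p62KO liver was below every WT liver, and every p62KO HSC library was above every WT library of its treatment. The log2 fold change was -0.61 ± 0.128 (SE) in liver, 0.23 ± 0.184 in vehicle HSC and 0.48 ± 0.184 in calcipotriol HSC. H2-Ke6, the hydroxysteroid dehydrogenase gene, was picked by the same rule. It had -0.66 ± 0.156 in liver, 0.95 ± 0.454 in vehicle HSC and 0.98 ± 0.430 in calcipotriol HSC. The separation is thus the rule of choice and not a result. With all libraries, edgeR called the liver changes and none of those in HSC. Tested nonmembers of the same stretch of chromosome 17 had median log2 fold changes of -0.01 in liver, 0.10 in vehicle HSC and 0.38 in calcipotriol HSC. How many other genes showed this pattern was not counted. Without both libraries that stood apart edgeR called H2-Ke2 in both HSC comparisons, and without p62KO calcipotriol replicate 1 both genes under calcipotriol. Those fits left a single library in a p62KO group. The replicate block ended both liver calls. The difference between liver and HSC was not tested, since the tables were scaled and fitted apart.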

How the results depend on the processing

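Scaling by DESeq2 size factors or the upper quartile kept every member call of the 3 genotype comparisons and reversed none; the upper quartile moved the all-gene median in vehicle HSC from 0.03 to 0.11. The DESeq2 test called 2442 genes in liver against 1020, and 16 and 53 for calcipotriol in WT and p62KO HSC against 0; without the filter these were 3 and 6. A fit of the 2 groups alone gave 1293 genes for genotype under calcipotriol and 345 for calcipotriol in WT.

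The replicate numbers did not pair the libraries (correlations of deviations 0.19, -0.19 and 0.14 in liver and -0.15 to 0.43 in HSC). With the replicate block, liver had 639 genes, 6 members higher and 0 lower, and Psmb9 turned to -0.01; H2-DMa was gained, and Ciita (edgeR adjusted p = 0.0522), H2-Ke2 and H2-Ke6 were lost. In vehicle HSC the block left 3 members, without H2-T10, and under calcipotriol all 3. A crossed block between the p62KO HSC groups, added after seeing the data, called 0 genes.

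Leaving out 1 library at a time gave, in liver, 3 to 3669 genes, 0 to 11 members higher and 0 to 2 lower, with Psmb9 between -0.35 and 0.21. In vehicle HSC it gave 238 to 3635 genes and 0 to 9 members higher, with B2m from -0.14 to 0.18, Nlrc5 from -1.20 to 1.08 and Psmb9 from -0.33 to 3.21. Under calcipotriol it gave 272 to 6052 genes, 0 to 6 members higher and 0 to 2 lower, with Tap1 from 0.00 to 0.50, Psmb8 from -0.14 to 0.57 and Psmb9 from -0.78 to 2.50. It gave 0 to 4559 genes and 0 to 2 members lower for calcipotriol in p62KO HSC and 0 to 2514 genes and 0 to 1 members lower for the interaction. An arm left with 1 library is assumed to vary like the other groups.

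Without both libraries that stood apart, vehicle HSC had 5459 genes, 6 members higher (Cd74 and H2-Ke2 gained) and 1 lower, with B2m at -0.14, Nlrc5 at -1.20 and Psmb9 at -0.33. Calcipotriol HSC had 5606 genes, 6 members higher and 2 lower, and the calcipotriol responses 283 genes in WT and 5 in p62KO. Each p62KO group then held a single library, whose spread was assumed. Apart from fewer libraries, the cause was not tested. Members under about 1 CPM rest on few counts, and a gene at 0 is known only to lie under 3 counts.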
